A study of Mus musculus with 6 samples.

Results

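A set of 8 genes that mark the macrophages of the brain's borders was followed across single immune cells from mouse brain: Mrc1, Pf4, Cd163, Lyve1, F13a1, Ms4a7, Cbr2 and Folr2. The 8 genes were taken by name from the 19848 genes of the deposited RNA table, and all 8 were found. Their values were read in all 13052 cells, across the 10 cell types that the authors assigned, and above all in the 506 cells labelled BAM, the usual abbreviation for border-associated macrophages.

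The cells were immune cells enriched by Percoll gradient from the brains of 24 female C57BL/6 mice. Mice were 12 weeks old (young) or 72 weeks old (aged). At each age, control mice received vehicle and kept their gut microbiota, and antibiotic mice received antibiotics that depleted it, with 6 mice in each of the 4 groups. Brains were combined in pairs into 12 pools, 3 per group, each marked by a hashtag antibody, so that a pool of 2 mice was the replicate. RNA and antibody tags were read from the same cells (CITE-seq). Young pools and aged pools went through separate wells of the droplet instrument, 6 in each, and age and well cannot be told apart. Hashtags 1 to 3 marked controls and 4 to 6 antibiotic pools in both wells, so hashtag and treatment cannot be told apart. The labels name no transgene and give brains as the source, so macrophages of the meninges, choroid plexus and perivascular spaces are not separated.

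Border-associated macrophages sit in the meninges, the choroid plexus and the spaces around vessels, whereas microglia sit inside the brain tissue. The genes studied here fall into groups by what their products do. Mrc1 (the mannose receptor CD206), Cd163 (the receptor for haptoglobin-haemoglobin complexes), Lyve1 (a hyaluronan receptor) and Folr2 (folate receptor beta) encode surface receptors with roles in uptake. Pf4 encodes a secreted chemokine, CXCL4, also known from platelets, and F13a1 encodes the A chain of coagulation factor XIII, a crosslinking enzyme that monocytes and macrophages also make. Cbr2 encodes a carbonyl reductase, and Ms4a7 a membrane protein of the MS4A family. In the border compartments, macrophages rich in Lyve1 and poor in MHC class II molecules have been described beside macrophages rich in MHC class II.

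RNA values were corrected UMI values: numbers of RNA molecules per gene and cell after adjustment to a common depth, as whole numbers. Pools held 5745242 to 13742781 raw UMIs and 17 to 62 BAM cells, and BAM cells had a median of 7610 raw UMIs. Young control pool 2 had the fewest BAM cells, with 17. Among young mice, BAM made up 3.32% ± 1.26 of the cells of a control pool and 3.99% ± 0.555 of an antibiotic pool, and among aged mice 4.22% ± 0.427 and 4.0% ± 1.10 (SD, n = 3 pools each). The 2 wells shared 59 cell barcodes, and the cells behind them were kept.

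The genes lie on 7 chromosomes of the mouse assembly GRCm38 (mm10): Mrc1 at chr2:14229414-14332023, Pf4 at chr5:90772435-90773383, Cd163 at chr6:124304636-124330529, Folr2 at chr7:101839988-101857190, Lyve1 at chr7:110850607-110862953, Cbr2 at chr11:120729485-120732025, F13a1 at chr13:36867178-37050244 and Ms4a7 at chr19:11321039-11336146. RefSeq promoter windows of 300 bases around the start of transcription were matched for 7 of the 8 genes (10 windows; Folr2, F13a1 and Ms4a7 had 2 each), and Lyve1 had no entry. The windows were searched on both strands for short motifs, among them letters bound by macrophage factors. The 2 windows below hold a match to PU.1 (GAGGAAGT), the ETS factor that macrophages depend on. They are shown because Pf4 was largely limited to BAM while F13a1 was shared with another myeloid type, and capitals mark the match, which may be on the opposite strand. The F13a1 window shown lies within the gene coordinates above, and the other F13a1 window (chr13:37050195-37050494) held no match to PU.1.
Pf4, chr5:90772185-90772484, plus strand: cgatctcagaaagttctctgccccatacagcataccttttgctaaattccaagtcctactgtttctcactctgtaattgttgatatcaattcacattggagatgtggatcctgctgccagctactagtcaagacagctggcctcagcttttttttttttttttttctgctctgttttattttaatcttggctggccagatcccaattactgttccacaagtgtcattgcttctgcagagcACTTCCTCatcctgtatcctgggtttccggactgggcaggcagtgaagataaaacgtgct
F13a1, chr13:37049164-37049463, minus strand: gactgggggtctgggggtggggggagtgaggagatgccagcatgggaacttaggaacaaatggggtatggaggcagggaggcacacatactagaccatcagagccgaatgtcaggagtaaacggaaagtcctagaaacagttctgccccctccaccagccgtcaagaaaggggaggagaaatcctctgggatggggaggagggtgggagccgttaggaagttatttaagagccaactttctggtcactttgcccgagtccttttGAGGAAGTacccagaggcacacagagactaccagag

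Of the 32851 RefSeq windows of the same length, 3.2% held GAGGAAGT. The AP-1 letters TGANTCA, in 7.81% of all windows, were found in 1 Folr2 and 1 Ms4a7 window. The E-box CACGTG (7.15% of all windows) and the TATA letters TATAAA (13.6%) were found in none of the 10. These matches describe the letters only.

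Across the cell types, 7 of the 8 genes were highest in BAM, and F13a1 was highest in the cells labelled Ly6CHigh. The mean over pools of the corrected value per BAM cell was 6.01 ± 1.26 for Mrc1, 2.46 ± 0.68 for Cd163, 0.959 ± 0.523 for Lyve1 and 0.741 ± 0.158 for Folr2 among the receptors (SD, n = 12 pools). It was 8.48 ± 2.41 for Pf4, 3.24 ± 0.59 for F13a1, 1.26 ± 0.434 for Cbr2 and 3.34 ± 0.808 for Ms4a7. The Ly6CLow cells came second for all of these except F13a1, with means 8.53 times lower than BAM for Mrc1, 10.7 times for Lyve1, 11.0 times for Ms4a7, 12.5 times for Folr2, 16.3 times for Cd163, 18.0 times for Cbr2 and 23.3 times for Pf4. Pools of BAM and Ly6CLow did not overlap for these genes, other than Lyve1, whose highest Ly6CLow pool (0.646) lay above the lowest BAM pool (0.294). In that Ly6CLow pool, aged antibiotic 1, 2.08% of 48 cells had Lyve1, with a summed value of 31. The highest value of any Ly6CLow cell was also 31, so a lone cell gave this pool its mean. The pool also enters the ratio of 10.7. From the second type downward, neighbouring types overlapped in every gene except F13a1, whose BAM pools all lay above the Ly6CLow pools. How the authors assigned the types is not given in the sources used here, and these genes may have served for it, so the order of types is a description without a test.

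**Figure D1:**
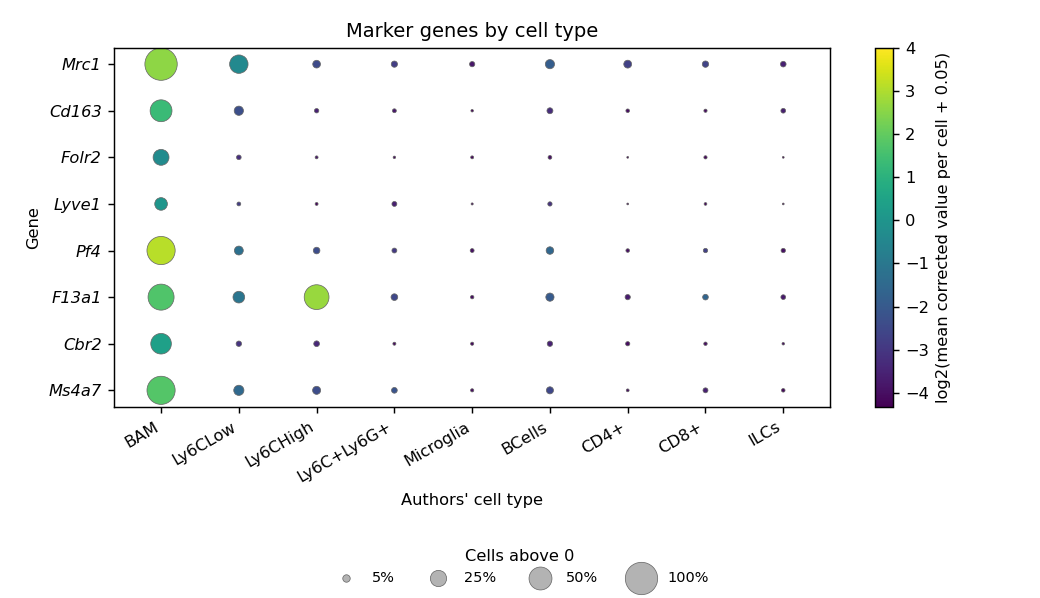
Marker genes (rows) in 9 of the authors' cell types (columns; the 9 NKCells are left out). Point area gives the percentage of cells with a corrected value above 0 and colour the log2 of the mean over pools of the corrected value per cell plus 0.05; the BAM column is filled for all genes, and F13a1 also stands out in Ly6CHigh.

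Among the CD45Low cells, Mrc1 followed the BAM label closely. Every BAM cell had an Mrc1 value of at least 1 and no microglial cell had a value above 1. Mrc1 was exactly 1 in 82 BAM cells and in 220 of 9403 microglia, 2 in 67 BAM cells, 3 in 67 and at least 4 in 290. Tmem119, a microglial gene, was above 0 in 100% of microglia and in 53.6% of BAM. BAM and microglia were all in the authors' CD45Low class, and every other type in CD45High. Since no BAM cell lacked Mrc1, which may have served to assign the label, the 100% share of Mrc1 in BAM is not read as a result.

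F13a1 set itself apart from the other genes. Its mean in Ly6CHigh was 6.52 ± 2.32 (SD, n = 11 pools), 2.01 times that of BAM, and pools of both types overlapped (3.28 to 9.60 in Ly6CHigh, 2.35 to 4.67 in BAM). A value above 0 was found in 58.6% of the 389 Ly6CHigh cells and 64.6% of BAM. The Ly6CHigh share was 92.2% of 205 cells in cluster 6 (median 14036 raw UMIs) and 30.0% of 30 in cluster 3 (12710). It was 26.6% of 109 cells in cluster 1 (577) and 0% of 25 in cluster 4 (587). By well, it was 78.2% in young (13258) and 47.4% in aged Ly6CHigh cells (951). The part of depth and of cell makeup was not tested. Over the 9 types with at least 50 cells, the log2 level of Lyve1 correlated with that of the 6 genes other than F13a1 at a Pearson r of 0.96 to 0.98. With F13a1, r was 0.55 for Lyve1, the lowest of the 7, and up to 0.71, for Ms4a7. These 9 points share their libraries, and BAM is the high point for 7 of the genes, so r is given as a description.

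In microglia, the brain macrophages that should lack these genes, low shares of cells had a value: 2.34% for Mrc1, 1.14% for Pf4, 0.830% for F13a1, 0.681% for Ms4a7, 0.649% for Cbr2, 0.542% for Folr2, 0.287% for Cd163 and 0.117% for Lyve1, at a median of 6934 raw UMIs. The BAM shares were 15.0% or more. Folr2 and Lyve1 were above 0 in none of the 214 CD4+ cells, which allows a share of up to 1.40%, and in none of the 330 ILCs, which allows 0.909%. The 9 NKCells had none of the 8 genes, which at this number allows up to 33.3%.

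Outside BAM, few cells held several of the genes together. At least 4 of the 8 were above 0 in 304 of 506 BAM cells (60.1%) and in 50 of 12546 other cells (0.399%). Mrc1, which may have served to assign the label, counts in every BAM cell. The contrast may thus be fixed in part by the label and is given as a description. The 50 cells outside BAM were 21 Ly6CLow, 13 BCells, 6 CD8+, 5 Ly6CHigh, 4 Ly6C+Ly6G+ and 1 microglial cell. Their median was 17484 raw UMIs, against 6960 for all cells other than BAM, and 34 of them were in the authors' clusters 3 and 8, which also held most BAM. All deposited cells were called singlets by the authors, no doublet caller was run here, and the part of doublets in these 50 cells was not tested.

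Among BAM the genes were held with very different evenness. Pf4 was above 0 in 75.9% of the 506 cells, Ms4a7 in 75.7%, F13a1 in 64.6%, Cd163 in 45.5%, Cbr2 in 40.3%, Folr2 in 23.9% and Lyve1 in 15.0%. Ms4a7 was the most even of these: the 51 highest cells held 35.1% of its summed value, compared with 39.1% for F13a1, 41.7% for Pf4, 47.9% for Cd163 and 53.4% for Cbr2. Folr2 and Lyve1 were concentrated, with 72.8% and 93.4% in the 51 highest cells. For Lyve1, 13 cells (2.57%) held 50% of the summed value, and for Ms4a7 86 cells (17.0%). Zeros at this depth include cells in which a low RNA was not captured, so a share of cells with a value is not a share of cells that express the gene.

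**Figure D2:**
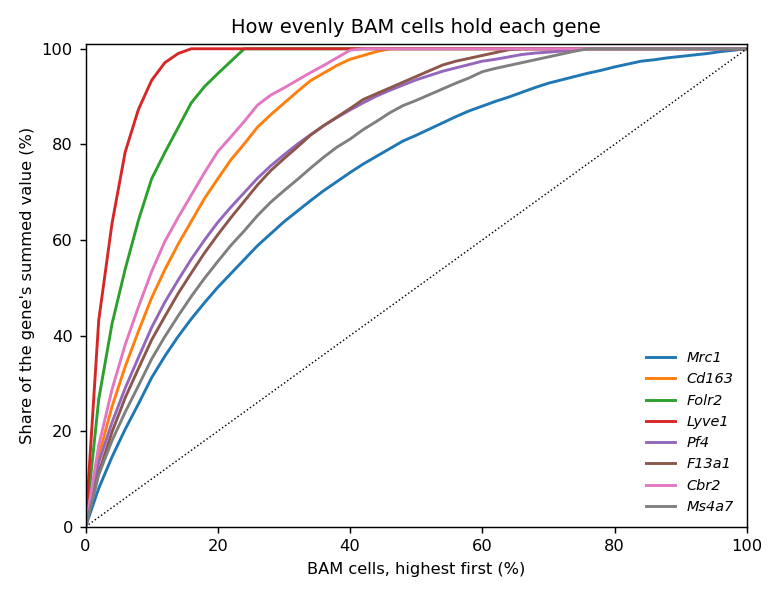
Cumulative share of each gene's summed corrected value (vertical axis, percent) held by BAM cells ordered from the highest value down (horizontal axis, percent of 506 cells); the dotted line would be an equal value in every cell. Lyve1 rises most steeply and reaches 93.4% in the 51 highest cells, Folr2 72.8%, and Mrc1, which every BAM cell had, 31.2%.

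The sparse genes sat inside the cells that held the common ones. Of the 76 BAM cells with Lyve1, 98.7% had Pf4, 98.7% F13a1, 94.7% Ms4a7, 90.8% Cd163, 84.2% Folr2 and 81.6% Cbr2. In the 430 BAM cells without Lyve1, the shares were 71.9% for Pf4, 58.6% for F13a1, 72.3% for Ms4a7, 37.4% for Cd163, 13.3% for Folr2 and 33.0% for Cbr2. Mrc1, Pf4 and Ms4a7 occurred together in 326 cells (64.4%), and Lyve1, Cd163, Folr2 and Cbr2 in 50 (9.88%). Over the 506 cells, Spearman's rho was 0.64 for Lyve1 with Folr2, the highest in which Lyve1 took part, and 0.18 for Lyve1 with Ms4a7. These correlations are over cells that share pools and depth and are given as a description.

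The number of the 8 genes above 0 spread widely over BAM cells: 38 cells had 1 gene (Mrc1), 67 had 2, 97 had 3, 68 had 4, 65 had 5, 74 had 6, 49 had 7 and 48 had all 8. Cells with 1 or 2 genes (105 cells) had a median of 6717 raw UMIs, cells with 3 to 5 (230 cells) 7112, and cells with 6 to 8 (171 cells) 8503. Depth thus moved with the number of genes, and its part was not tested. The number also moved with the authors' clusters. Of the 48 cells with all 8 genes, 44 were in cluster 8 and 4 in cluster 3, and of the 38 with Mrc1 alone 27 were in cluster 3 and none in cluster 8.

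**Figure D3:**
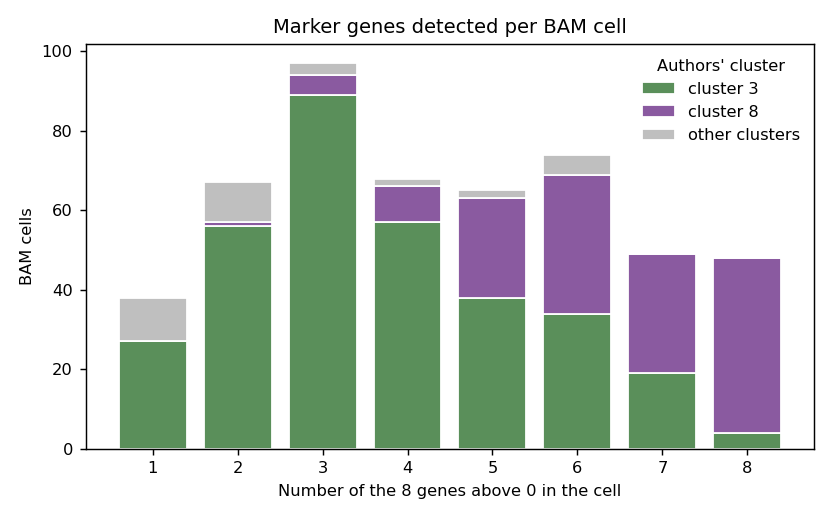
Number of BAM cells (vertical axis) by how many of the 8 genes were above 0 (horizontal axis), coloured by the authors' cluster. Cells with 3 genes are the most frequent class (97 cells), a second rise lies at 6 genes (74 cells), and cluster 8 fills most of the classes with 7 and 8.

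Most BAM cells belonged to 2 of the authors' clusters, and all 8 genes had a higher mean in cluster 8. Cluster 3 held 324 BAM cells (64.0%) and cluster 8 held 149 (29.4%). Lyve1 had a mean of 3.26 in cluster 8 and 0.0988 in cluster 3, and was above 0 in 43.0% and 3.09% of cells. Folr2 had means of 2.05 and 0.222, Cbr2 2.83 and 0.633, Cd163 5.05 and 1.51, F13a1 6.28 and 2.14, Pf4 15.9 and 5.97, and Mrc1 10.4 and 4.62. Ms4a7 differed least, with 4.22 and 3.22. The median depth was 8048 raw UMIs in cluster 8 and 7199 in cluster 3. The clusters were made from the RNA of these cells, so these values describe them and carry no test.

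MHC class II genes, which were looked up for this comparison, were higher in cluster 3. H2-Aa, a chain of the class II molecule I-A, had a mean of 66.3 in BAM of cluster 3 and 1.77 in cluster 8. The antibody tags, which were counted apart from RNA, followed the same division. In the young well, I-A/I-E tags numbered 2767 per cell in cluster 3 and 111 in cluster 8, and in the aged well 492 and 36.6. All tags together had medians of 3848 and 2583 per cell in clusters 3 and 8 of the young well and of 646 and 348 in the aged well, so tags are compared within a well. CD38 tags ran the other way, at 149 and 740 per cell in the young well and 28.6 and 102 in the aged well. Within each of the 12 pools, I-A/I-E was higher in cluster 3 and CD38 higher in cluster 8. Whether tags entered the authors' clustering is not given in the sources used here. The 5 or more cells per pool in cluster 8 limit the precision of single pools.

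Cluster 3 was not made of BAM alone. It also held 316 of the 634 Ly6CLow cells (49.8%), which the authors' CD45 class kept apart from BAM. Mrc1 was above 0 in 60.8% of those Ly6CLow cells, with a mean of 1.22, against 4.62 in BAM of the same cluster. Ccr2, a monocyte chemokine receptor, had a mean of 5.22 in the Ly6CLow cells and 1.88 in the BAM cells of cluster 3, and Apoe, a lipid carrier, 44.7 and 276. BAM and Ly6CLow cells of cluster 3 thus shared MHC class II RNA and differed in level for the marker genes.

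The BAM label was checked against markers of other cells. All 8 microglial markers listed had a mean above 0.05 in BAM, and their summed level was 22.4 to 42.9 in young control, 20.8 to 43.4 in young antibiotic, 25.7 to 41.8 in aged control and 13 to 21.3 in aged antibiotic pools. Microglial genes were lower than in microglia: P2ry12, a purinergic receptor, had a mean of 2.44 in BAM and 10.6 in microglia. Of the 5 genes listed for platelets, which also carry Pf4, Ppbp and Gp1bb were at 0 in all BAM cells. Ppbp was at 0 in Ly6CLow cells and microglia too. Gp9 was above 0 in 4.74% of BAM cells, Treml1 in 0.988% and Itga2b in 0.791%. In microglia these shares were 22.6%, 1.05% and 0.277%. The summed level of the 5 platelet genes was at most 0.161 in any BAM pool. Summed B cell markers (5 genes) ran from 1.17 to 6.76. Neutrophil markers (6 genes) were at 1.35 to 2.24 in young and 0.435 to 0.705 in aged pools. Classical monocyte markers (6 genes) were at 1.24 to 3.29 in young and 0.324 to 1.36 in aged pools. The part of these other RNAs in the results below was not tested.

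In young mice, Mrc1, Pf4 and Cbr2 had higher means after antibiotics, and none of the 8 genes passed the test. Mrc1 was 5.87, 3.12 and 7.30 in the control pools and 7.03, 7.85 and 7.21 in the antibiotic pools. Pf4 was 7.92, 4.53 and 9.84 against 11.2, 13.1 and 8.16. Cbr2 was 1.00, 0.706 and 1.47 against 1.78, 2.24 and 1.40. Control and antibiotic pools overlapped for each of these genes, and control pool 2 was the lowest for all of them.

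Pool means were compared with limma on log2(mean + 0.05), with all 4 groups in one fit, Benjamini-Hochberg adjustment over 8942 genes and a threshold of 0.05. This scale understates the change of low genes. In young BAM, 0 of 8 genes were called, while 2 of all genes tested were (0.0224%). At an unadjusted p under 0.05 there were 3 of the 8 and 512 of all genes. The log2 change was 0.52 for Mrc1 (SE 0.205, limma adjusted p = 0.813), 0.58 for Pf4 (SE 0.227, adjusted p = 0.813) and 0.78 for Cbr2 (95% interval 0.27 to 1.28, adjusted p = 0.711). All 8 changes were above 0, with a median of 0.36, whereas 57.8% of all genes were above 0 with a median of 0.07. No gene of the 8 had pools that did not overlap, against 9.64% of all genes. Young control pool 2 weighed on these values: without it, the change was 0.17 for Mrc1, 0.26 for Pf4 and 0.53 for Cbr2, and those of Folr2 (0.21) and F13a1 (0.31) became 0.07 and 0.13. The changes of Lyve1 (0.41) and Ms4a7 (0.20) turned to -0.32 and -0.16. Classical monocyte markers (6 genes) had a summed level of 2.46 to 3.29 in young control and 1.24 to 2.0 in young antibiotic BAM, and their part in the changes was not tested.

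In aged mice, Cd163 had the largest difference. Its pools were at 2.16, 1.23 and 2.52 in controls and 2.97, 3.93 and 2.52 after antibiotics, so that the highest control pool and the lowest antibiotic pool lay side by side. The log2 change was 0.70 (SE 0.23, 95% interval 0.22 to 1.17, limma adjusted p = 0.415). It was 0.40 without aged control pool 2 and 0.90 without aged control pool 3 (limma adjusted p of 0.288 or higher with any pool left out). Beside it, the summed microglial markers of BAM were at 25.7 to 41.8 in aged control and 13 to 21.3 in aged antibiotic pools, without overlap, and their part in the difference was not tested. Pf4 was 6.89, 10.3 and 9.29 in control and 7.64, 5.36 and 7.56 in antibiotic pools (log2 change -0.36, limma adjusted p = 0.788, and -0.19 without aged antibiotic pool 2). Of the 8 genes 0 were called, against 11 of all genes (0.123%), and 1 of the 8 and 666 of all genes had an unadjusted p under 0.05. Changes lay above 0 for 5 of the 8 genes and below 0 for 3 (median 0.13), while 40.2% of all genes were above 0 (median -0.09). Pools did not overlap for 1 of the 8 genes, Cd163, and for 14.5% of all genes.

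**Figure D4:**
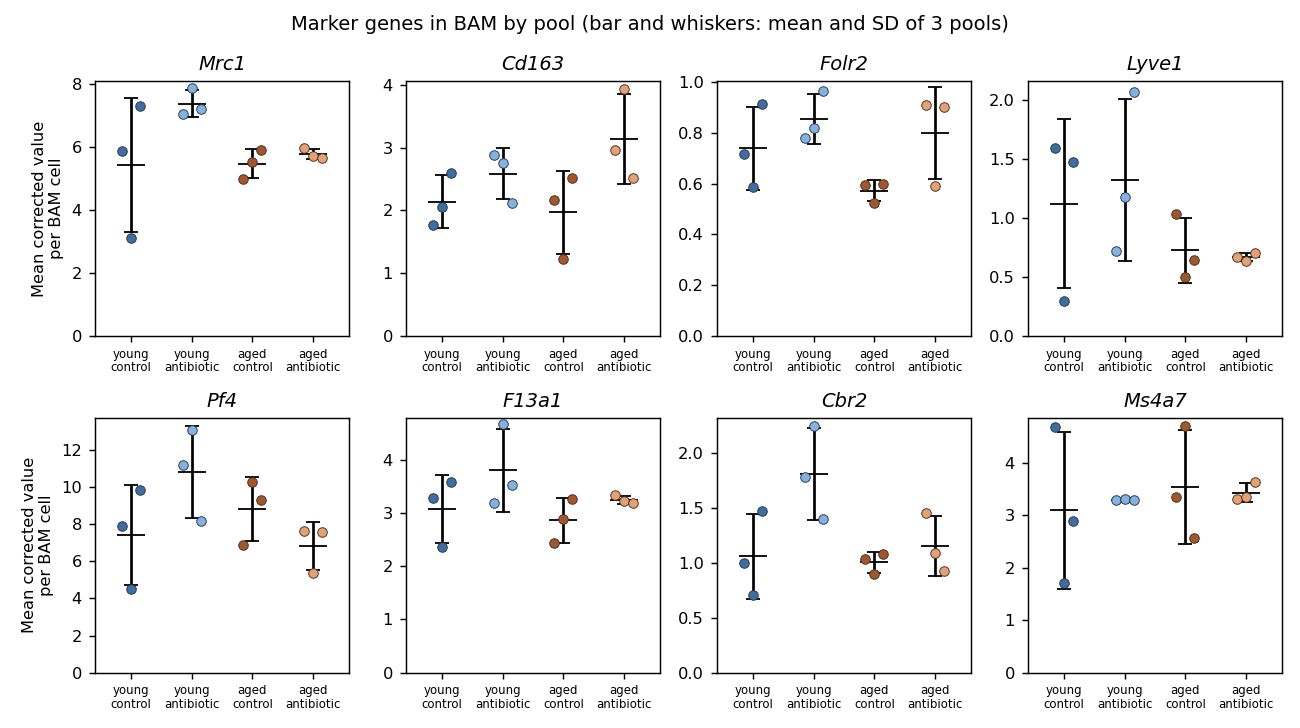
Mean corrected value per BAM cell (vertical axis, from 0) of each gene in the 3 pools of each group (points), with the mean and SD of the pools. Control and antibiotic pools of the same age overlap in every panel except for Cd163 in aged mice, and young and aged control pools overlap in every panel. Young and aged antibiotic pools, a comparison that was not tested, do not overlap for Mrc1, Lyve1 and Pf4. The share of all genes without overlap is not known for this comparison, so nothing is read from it, and age and well cannot be told apart. Young control pool 2 gives the low point of that group for Mrc1 (3.12), Pf4 (4.53), Lyve1 (0.294) and Ms4a7 (1.71).

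Over both ages together, 8 of 8 changes with antibiotics lay above 0 (median 0.28), against 48.7% of all genes (median -0.01). In aged mice alone 5 of the 8 did. Of the 8 genes 0 were called (5 of all genes, 0.0559%). Cd163 had the smallest p of the 8, with a log2 change of 0.49 (SE 0.163, limma adjusted p = 0.531), and 3 of the 8 and 629 of all genes had an unadjusted p under 0.05. Without young control pool 2, Lyve1, Pf4 and Ms4a7 turned to -0.19, -0.05 and -0.08, and Mrc1 went from 0.30 to 0.12. No gene was called in limma for the difference of the antibiotic change between ages (0 of the 8 and 0 of all genes, 0%), with 1 of the 8 and 551 of all genes at an unadjusted p under 0.05. Pf4 was that gene: its change in aged mice minus that in young mice was -0.94 (SE 0.321, limma adjusted p = 0.762), and -0.62 without young control pool 2. Intervals were wide, at -1.67 to 0.75 for Lyve1.

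Shares of BAM cells with a value gave a second view of evenness by group. Cd163 was above 0 in 43.6%, 29.4% and 43.9% of cells in young control pools and in 61.1%, 48.5% and 43.1% in young antibiotic pools. In aged pools it was above 0 in 40.5%, 37.5% and 43.5% of control and 45.5%, 56.8% and 46.0% of antibiotic cells. The difference over both ages was 10.4 percentage points (two-sided exact permutation test within age over 400 arrangements, p = 0.015, unadjusted, as 1 of 8 genes compared in this way). It was 8.03 points (exact permutation p = 0.05) without young control pool 2 and 7.87 points (exact permutation p = 0.055) without young antibiotic pool 1. Folr2 (3.87 points), Cbr2 (3.10), Ms4a7 (3.02), F13a1 (2.12), Lyve1 (0.794) and Pf4 (-3.66) had exact permutation p-values of 0.26 to 0.78. Within 1 age, 3 pools against 3 cannot give a p below 0.1.

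Counted per BAM cell, 4.27 ± 0.349 of the 8 genes were above 0 in control and 4.64 ± 0.0779 in antibiotic pools of young mice, and 4.30 ± 0.0912 and 4.32 ± 0.056 in those of aged mice (means of pools ± SD, n = 3 each). The lowest pool was young control 2, with 3.88, and the highest young antibiotic 2, with 4.73.

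Between ages, none of the 8 genes passed the test in control mice. Lyve1 had pool means of 1.59, 0.294 and 1.47 in young and 1.03, 0.5 and 0.645 in aged controls, with a log2 change of -0.35 (95% interval -1.21 to 0.50, limma adjusted p = 0.941). Without young control pool 2 this change was -1.09, and over the leave-one-out fits its adjusted p was 0.486 or higher. Folr2 had a log2 change of -0.33 (limma adjusted p = 0.852; -0.17 without young control pool 3) and Pf4 one of 0.30 (adjusted p = 0.862; -0.02 without young control pool 2). Of the 8 genes 0 were called and 0 had an unadjusted p under 0.05, while 4 of all genes were called (0.0447%) and 544 had an unadjusted p under 0.05. Pools did not overlap for 0 of the 8, against 11.2% of all genes.

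**Figure D5:**
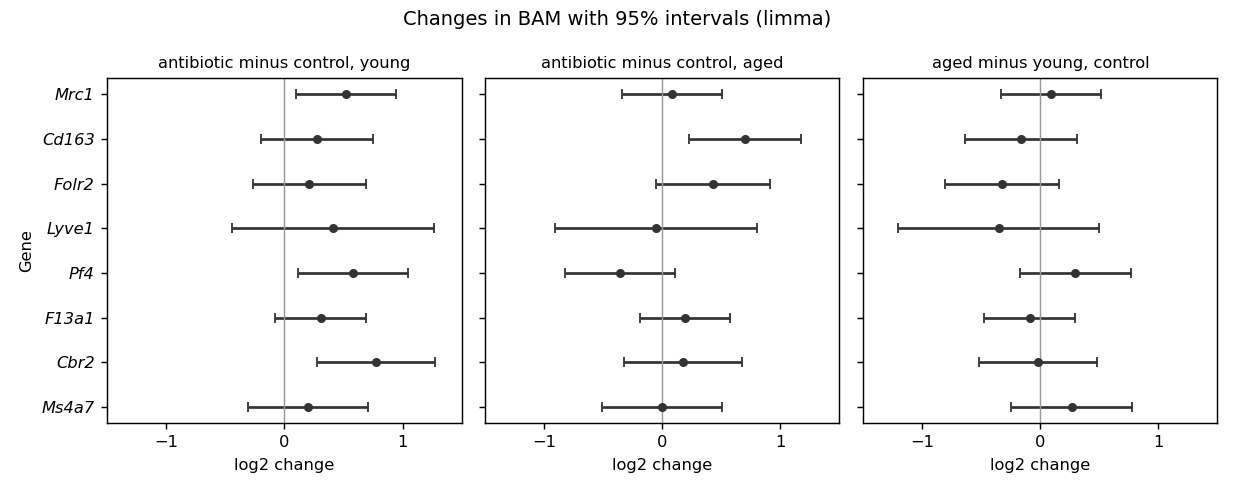
Log2 change (points) with 95% interval from limma for each gene in BAM in 3 comparisons. Intervals exclude 0 before adjustment for Mrc1, Pf4 and Cbr2 in young mice and for Cd163 in aged mice; no gene passes after adjustment over 8942 genes.

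The shares of Lyve1-bearing cells and of cluster 8 among BAM were set side by side for both wells. Lyve1 was above 0 in 11.8% to 24.1% of BAM cells in the 6 young pools (median 20.9%) and in 5.0% to 16.2% in the 6 aged pools (median 9.38%). Cluster 8 made up 22.2% to 48.5% of BAM in young pools (median 36.1%) and 18.2% to 24.3% in aged pools (median 20.2%). The ranges overlapped for both measures, no test was run on them, and age and well cannot be told apart. The median depth of BAM was 7769 raw UMIs in the young and 7412 in the aged well.

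Outside BAM, the members were tested in 3 further types. In Ly6CLow cells all 8 passed the filter on low values (a mean of at least 0.05) and none was called in any comparison. For age in controls, 0 of 8 were called and 65 of all 8613 genes (0.755%), and 3 of the 8, all lower in aged mice, and 1393 of all genes had an unadjusted p under 0.05. Mrc1 was 0.892 ± 0.289 in young and 0.456 ± 0.154 in aged controls (SD, n = 3) and did not pass the test (log2 change -0.90, SE 0.387, limma adjusted p = 0.263). It passed when pool values were means of log values (log2 change -0.34, limma adjusted p = 0.036). Beside this, 5.07% ± 4.12 of young control and 34.1% ± 10.4 of aged control Ly6CLow cells had under 2000 raw UMIs, and 58.1% ± 9.32 and 36.4% ± 11.9 were in cluster 3. Within cluster 3, Mrc1 was 1.35 ± 0.213 in young and 1.22 ± 0.594 in aged control Ly6CLow cells. The part of depth and of cell makeup in the difference was not tested.

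For antibiotics, 0 of 8 genes were called in Ly6CLow at either age (0% of all genes) in limma. At an unadjusted p under 0.05 there were 2 of the 8 and 535 of all genes in aged mice, and 0 of the 8 and 365 of all genes in young mice. Ms4a7 had pool means of 0.194 to 0.291 in aged control and 0.417 to 0.696 in aged antibiotic Ly6CLow pools (log2 change 1.01, SE 0.296, limma adjusted p = 0.725). In young mice its pools overlapped, at 0.190 to 0.260 in control and 0.0909 to 0.209 in antibiotic pools. Pf4 went the other way in young mice, at 0.42 to 0.756 in control and 0.209 to 0.273 in antibiotic pools. In aged mice the Pf4 pools overlapped. The share of all genes without overlap is not known for Ly6CLow, so no result is read from these ranges.

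In Ly6CHigh cells 4 of the 8 genes passed the filter (Mrc1, Pf4, F13a1 and Ms4a7) and 0 were called in each comparison, as were 0 of all 8190 genes (0%), while 1 of the 4 (F13a1) and 263 of all genes had an unadjusted p under 0.05 for antibiotics over both ages. In young mice, F13a1 was 8.69 ± 0.308 in control pools (SD, n = 3) and 3.64 and 8.15 in the antibiotic pools used, since the third had 6 cells. In aged mice it was 6.39 ± 2.84 in control and 4.88 ± 1.41 in antibiotic pools (SD, n = 3). Its log2 change with antibiotics over both ages was -0.51 (95% interval -0.99 to -0.02, limma adjusted p = 0.999). It was -0.22 without young antibiotic pool 1, which had 14 cells, and -0.79 without young antibiotic pool 3. Summed neutrophil markers ran from 0.929 to 287 over the Ly6CHigh pools, and their part was not tested. Ly6CHigh cells had a median of 13258 raw UMIs in the young and 951 in the aged well, and the part of depth was not tested. In microglia 0 of the 8 genes passed the filter. Without it, 1 of the 8, Folr2, was called for antibiotics in aged mice, against 0.563% of the 18650 genes then tested (log2 change 0.29, limma adjusted p = 0.0299), from summed corrected values of 0, 3 and 1 in control and 7, 11 and 9 in antibiotic pools of 475 to 1028 cells. Its level stayed at 0.0189 or less per microglial cell in every pool, compared with 0.525 or more in BAM.

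A list of 40 other genes known from border macrophages was read alongside. All 40 were tested in BAM. None was called for antibiotics in young, aged or both ages together (0.0224%, 0.123% and 0.0559% of all genes). None was called for the difference between ages (0% of all genes), and 1 was called for age in controls (0.0447% of all genes). This gene was Ednrb, the endothelin receptor type B, with means of 0.256, 1.06 and 0.491 in young control pools and 0, 0 and 0.0323 in aged control pools (log2 change -3.27, SE 0.426, limma adjusted p = 0.000592). Ednrb was above 0 in 12.8%, 29.4% and 24.6% of young control and in 0%, 0% and 3.23% of aged control BAM cells, so the pools did not overlap. Young antibiotic pools were at 0.333, 0.455 and 0.328 and aged antibiotic pools at 0.0606, 0.0909 and 0.02. The adjusted p ranged from 9.91e-05 to 0.00996 as single pools were left out, with log2 changes of -3.71 to -2.79.

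Ednrb was mostly a gene of cluster 8, with a mean of 0.671 there and 0.0123 in cluster 3. Within cluster 8 of the control pools, it was above 0 in 5 of 12, 4 of 5 and 14 of 27 young cells and in 0 of 9, 0 of 8 and 1 of 15 aged cells. Endothelial markers (5 of the 6 listed were in the table), whose cells also make Ednrb, had a summed level of 0.193 to 3.41 in young control and 0.05 to 0.629 in aged control BAM, and their part in the difference was not tested. Age and well cannot be told apart here either.

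The other named genes of this list did not pass the test. For antibiotics in young BAM the smallest p-values were those of Stab1, a scavenger receptor (log2 change 0.39, limma adjusted p = 0.819), and Fcgrt, the neonatal Fc receptor (0.43, adjusted p = 0.848). In aged BAM, Ms4a6b was named (0.54, limma adjusted p = 0.345). Over both ages they were Hpgd, a prostaglandin-degrading enzyme (-0.44, limma adjusted p = 0.359), and Fcgrt (0.44, adjusted p = 0.425). Hpgd had a mean of 2.76 in BAM and 2.87 in microglia, and Fcgrt 2.2 and 0.743. Some other listed genes, such as Ltc4s (2.72 and 4.59) and Blnk (0.881 and 1.22), were also higher in microglia. The part of microglial RNA in these changes was not tested. For the difference between ages, Fcna, a ficolin, was named (1.81, limma adjusted p = 0.762). The list's median change was 0.21 in young and 0.04 in aged mice, with 26 and 22 of 40 genes above 0. Of all genes, 57.8% were above 0 in young (median 0.07) and 40.2% in aged mice (median -0.09).

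Genes with the pattern over cell types most like the 8 were sought among 10872 genes (a mean of at least 0.05 in 1 type or more), by Pearson correlation of log2(mean + 0.05) over the 9 types with at least 50 cells. Closest to the mean of the 8 were Igf1, an insulin-like growth factor (r = 0.984), Colec12 (0.982), Serpinb8 (0.979), Sash1 (0.972), C4b, a complement component (0.971), Ccl7, a monocyte-attracting chemokine (0.967), Fcna (0.959) and Gpx3, a glutathione peroxidase (0.958). With a pseudocount of 0.5, 7 of these 8 were named again. One to one, the closest gene was Colec12, a collectin, for Cd163 (0.985), Folr2 (0.995) and Cbr2 (0.996), Cyr61 for Lyve1 (0.974) and Pf4 (0.973), Ccl7 for Mrc1 (0.964), Sash1 for Ms4a7 (0.954) and Szrd1 for F13a1 (0.958). With the pseudocount of 0.5, 0 of these one-to-one partners stayed the same. Levels of the first group in BAM ranged from 0.267 for Colec12 to 4.88 for Ccl7, with at most 0.0615 in microglia.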

How the data were processed

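Per the labels, cells of 12 hashtag pools were profiled by CITE-seq, and the submitters' processing notes name Cell Ranger 3.0.2, Seurat 3.0.1 and the mouse build mm10. The deposited RNA table, named as SCT normalized, holds SCTransform scores: UMI values adjusted for depth, in whole numbers that add up to the deposited SCT total of each cell, and no count model was used on them. Antibody tag counts, UMI totals, cell types, clusters and hashtag calls are those the authors deposited. 33 further metadata columns were not used.

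Means per pool and type were computed for pools with at least 10 cells of the type. Pool means were compared with limma 3.58.1 in R 4.3.3 (trended prior variance) on log2(mean + 0.05), for genes with a mean of at least 0.05, in 5 contrasts, with Benjamini-Hochberg adjustment over all genes tested and a threshold of 0.05. The fit was tested on simulated data. Shares were compared with exact permutation tests that listed every arrangement of the pools within each age (numpy 2.4.6). Spearman's rho was computed with scipy 1.17.1. Alternatives were a pseudocount of 0.5, no filter, at least 20 cells per pool, weighting by cells, means of log values, cells with at least 2000 raw UMIs, no trended prior, a value of at least 2 as detected, and leaving out each pool.

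Named were the 8 genes, the genes most like them over types, and of the 40 listed other border macrophage genes up to 3 raised and 3 lowered per contrast that passed in BAM, or else the 2 of smallest p. One gene that this rule names and one of the promoter motifs searched are not reported here. The members and lists were chosen with earlier results of these data known. As the gene list was so chosen, no p was adjusted over it alone. Counting error and the small number of cells per pool limit all values. Upper limits for a share of 0 are 3 cells of the total and cover counting error only.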

Additional observations from a re-analysis of the deposited data

How the results depend on the processing

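No paired analysis was possible because hashtag numbers name different mice in each group and no label ties pools across groups. The raised minimum of 20 cells per pool was not run in Ly6CHigh, where too few pools were left. Leaving out a young antibiotic pool there leaves 1, which is assumed to vary like the other groups. Of 498 values under the alternatives other than leaving out single pools, 468 kept their side of the threshold and, where it applied, their direction. Of 977 with a single pool left out, 946 did. These totals include 135 and 235 counts of genes called, which have no direction. With the filter, 0 of the 8 genes were tested in microglia, so the counts there are 0 by construction. The totals are thus no measure of how stable the changes were. Direction turned in 20 and 29 values. With a pool left out, it turned most often for the change of Ms4a7 (9 of 72) and in 0 of 60 for Folr2. The count of the 8 genes called stayed at 0 in BAM in all of the alternatives. It became 1 in microglia of aged mice without the filter (Folr2) and 1 in Ly6CLow for age in controls with means of log values (Mrc1). Folr2 was not among the genes tested with the filter, and the cause of the second was not tested.

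With at least 20 cells per pool, which left out young control pool 2, changes in BAM turned sign for antibiotics in young mice (Lyve1 -0.32, Ms4a7 -0.16), over both ages (Lyve1 -0.19, Pf4 -0.05, Ms4a7 -0.08), for the difference between ages (Lyve1 0.27, F13a1 0.06, Ms4a7 0.16) and for age in controls (Mrc1 -0.26, Pf4 -0.02, Ms4a7 -0.10). Weighting pools by cells turned Ms4a7 in aged mice to 0.07, Pf4 over both ages to -0.04, Ms4a7 for the difference to 0.01 and Mrc1 for age to -0.11. Means of log values turned Cbr2 for age to 0.03, and cells with at least 2000 raw UMIs turned F13a1 for age in Ly6CHigh to 0.12. All of these had a limma adjusted p of 0.892 or higher. Apart from the removal of a pool, their cause was not tested.

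Leaving out 1 pool at a time gave log2 changes for age in controls of -0.27 to 0.24 for Cbr2, -0.37 to 0.14 for Cd163, -0.27 to 0.03 for F13a1, -1.09 to 0.04 for Lyve1, -0.26 to 0.35 for Mrc1, -0.10 to 0.61 for Ms4a7 and -0.02 to 0.53 for Pf4. For antibiotics it gave -0.32 to 0.80 (Lyve1) and -0.16 to 0.55 (Ms4a7) in young, -0.27 to 0.21 (Lyve1) and -0.21 to 0.22 (Ms4a7) in aged, and -0.19 to 0.38 (Lyve1), -0.08 to 0.27 (Ms4a7) and -0.05 to 0.23 (Pf4) over both ages. For the difference between ages it gave -0.86 to 0.27 (Lyve1), -0.23 to 0.06 (F13a1) and -0.56 to 0.16 (Ms4a7). The Cd163 share difference ran from 7.87 to 12.4 points and the Lyve1 one from -0.855 to 2.27 points.

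Counting only values of at least 2 as detected, which by construction lowers shares, gave 82.2% of BAM cells for Mrc1, 66.5% for Pf4, 60.7% for Ms4a7, 54.4% for F13a1, 26.3% for Cbr2 and 16.8% for Folr2, as means of 12 pools, and 3.58 genes per cell in place of 4.38. The share differences with antibiotics became -0.074 points for Folr2, -0.712 for Lyve1 and 0.2 for Pf4, with exact permutation p-values of 0.735 to 0.965.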
